A study of Mus musculus with 6 samples.

Results

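The chromatin around 7 genes that answer to the LIF, MEK and GSK3 pathways was described by ATAC-seq, which cuts open chromatin with a transposase and sequences the cut ends. The genes are Lifr, Stat3 and Socs3 of the LIF arm, Dusp6 and Spry4 of the MEK arm, and Axin2 and Lef1 of the GSK3 arm. Every peak in the 6 deposited peak lists that overlapped a fixed GRCm39 window around one of these genes was taken. Overlapping peaks of different libraries were merged, which gave 194 regions in the 7 windows of 259376 merged mouse regions in all. The windows were given as coordinates, and no GRCm39 annotation was used here, so a region is named by its window and its distance from the window's centre and is not assigned to a promoter or an intron.

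The libraries came from E14TG2a mouse embryonic stem cells of 3 genotypes, with 2 libraries each: Alkbh5 KO, Alkbh5 del-cIDR and WT. Alkbh5 encodes an RNA demethylase that removes the methyl group of m6A. According to the series, the del-cIDR allele carries a deletion of an intrinsically disordered region of this protein. The medium was the same for all groups and held 15% serum, LIF at 1000 U/ml, the MEK inhibitor PD0325901 at 1 µM and the GSK3 inhibitor CHIR99021 at 3 µM, so the medium acted on all 3 pathways in every library and no library without these agents was compared. Before transposition, 10 µl of spike-in nuclei were added to each sample. The labels do not say whether the libraries of a genotype came from separate clones or cultures, and their spread may reflect technical variation only.

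LIF binds the receptor LIFR together with gp130, and the kinases attached to them phosphorylate STAT3, which enters the nucleus and activates target genes. SOCS3, itself made in response to STAT3, shuts the receptor complex off. MEK activates ERK, and DUSP6, a phosphatase of ERK, and SPRY4, an inhibitor of the signalling above it, are feedback products of that pathway. GSK3 marks β-catenin for destruction in a complex built on AXIN2 or its relative AXIN1, and LEF1 is a DNA-binding partner of β-catenin. Inhibition of MEK and GSK3 together with LIF keeps mouse embryonic stem cells in a naive pluripotent state, and AXIN2 and LEF1 are also common targets of β-catenin.

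The promoters of a feedback gene from each arm are shown because transcription factors of these pathways act at promoters and the motif matches reported here lie in them. RefSeq promoters of GRCm38.p6 matched 6 of the 7 genes and gave 10 promoters, of which the 250 bases before the start were searched on both strands. The Socs3 promoter, chr11:117969367-117969616 on the minus strand, holds a GAS element of the kind bound by STAT proteins, 154 bases before the start, and a GC box at 112 bases. The Dusp6 promoter, chr10:99262981-99263230 on the plus strand, holds a CCAAT box 46 bases before the start. The Axin2 promoter, chr11:108920099-108920348 on the plus strand, holds GC boxes at 58 and 20 bases. Capitals mark these matches, and the CCAAT box of Dusp6 is printed as its complement ATTGG.
Socs3: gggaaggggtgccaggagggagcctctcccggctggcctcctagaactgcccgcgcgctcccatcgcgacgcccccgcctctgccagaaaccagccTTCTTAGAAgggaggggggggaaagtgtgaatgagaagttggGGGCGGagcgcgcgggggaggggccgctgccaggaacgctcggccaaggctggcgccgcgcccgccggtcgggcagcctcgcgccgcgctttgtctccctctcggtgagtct
Dusp6: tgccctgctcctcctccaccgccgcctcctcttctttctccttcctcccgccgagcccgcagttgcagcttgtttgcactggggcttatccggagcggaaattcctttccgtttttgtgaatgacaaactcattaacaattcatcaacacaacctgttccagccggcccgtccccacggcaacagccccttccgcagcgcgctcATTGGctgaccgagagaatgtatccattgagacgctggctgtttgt
Axin2: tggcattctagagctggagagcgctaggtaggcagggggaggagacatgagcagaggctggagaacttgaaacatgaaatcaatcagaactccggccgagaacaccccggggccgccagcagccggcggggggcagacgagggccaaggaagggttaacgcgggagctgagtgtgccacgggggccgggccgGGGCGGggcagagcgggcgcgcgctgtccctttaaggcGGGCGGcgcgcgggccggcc
These coordinates are of another build than the peak lists and were not converted, so which peak lies over each promoter was not determined.

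No member promoter held the longer STAT palindrome TTCCNGGAA, which 0.913% of 32851 RefSeq promoters hold, nor the TCF/LEF letters CTTTGAT (3.21% of promoters), the ETS letters CCGGAAG (6.91%) or the AP-1 letters TGANTCA (6.75%). The GAS letters TTCNNNGAA, of which the STAT palindrome is a special case, were found in Socs3 and in 7.02% of all promoters. The GC box GGGCGG stood in 7 of the 10 member promoters, against 32.7% of all. Of these 7, 3 are Lef1 promoters, and a pair of those overlap and share the same GC box. The CCAAT box stood in 3 of 10, against 33.8%. The GAS, GC box and CCAAT letters were added after the first motifs gave no match. Of the other genes of the pathways, promoters were found for 14 of 15 of the LIF arm, 14 of 23 of the MEK arm and 12 of 21 of the GSK3 arm. Among these, the TCF/LEF letters were found in Sp5, the ETS letters in Ptpn11, Rnf43 and Tcf7, and the AP-1 letters in Lif. The GC box stood in 73.3% of their LIF arm promoters, 68.75% of the MEK arm and 56.25% of the GSK3 arm, so it was not particular to the 7 genes. In the member promoters with a GC box, G and C made up 50.8% to 82.4% of the bases, against a median of 52.4% over all promoters. Ptpn11 encodes a phosphatase of receptor signalling, Rnf43 a ligase that removes Wnt receptors, and Tcf7 and Sp5 encode DNA-binding proteins of the Wnt pathway. These matches describe letters in the stretch searched and say nothing of binding.

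Each deposited list gives, per peak, the authors' fold of the tag pileup at the summit over the local background. The lists held 164639 and 150680 mouse peaks in KO, 157931 and 155128 in del-cIDR, and 193905 and 184884 in WT. Read depth was not given, but the fold and its p-value fix the summit height in whole tags, and the genome-wide background lay between 1.01 and 1.26 tags over the 6 libraries. The lists hold called peaks and no expression, so neither the Alkbh5 alleles nor the stem cell label was checked here, and a region missing from a list was not called, which does not show that it was closed. Fold was therefore compared as a rank, either among all mouse peaks of its own list (own-list percentile) or among the 99216 regions called in all 6 libraries (percentile), where 100 is the highest fold. With 2 libraries against 2, the smallest exact two-sided p is 0.333, so no difference between genotypes was tested. Counts in the windows are set beside the same share over all regions.

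The windows were dense in open regions. They held 22.6 regions per 100 kb, against 9.53 over the mouse genome as spanned by the peaks. Of the 194 regions, 78 (40.2%) were called in all 6 libraries, close to the 38.3% of all regions, and 41 (21.1%) in a single library, against 25.2% of all. The share called in all 6 was 78.9% in the Socs3 window (15 of 19 regions) and 26.9% in the Axin2 window (7 of 26). The other windows lay between 32% in Spry4 (8 of 25) and 40.9% in Lef1 (18 of 44). The 78 regions had a median width of 559.5 bp, against 555 bp for all regions called in every library, and a median spread of summits over the libraries of 71 bp, against 69 bp.

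**Figure D1:**
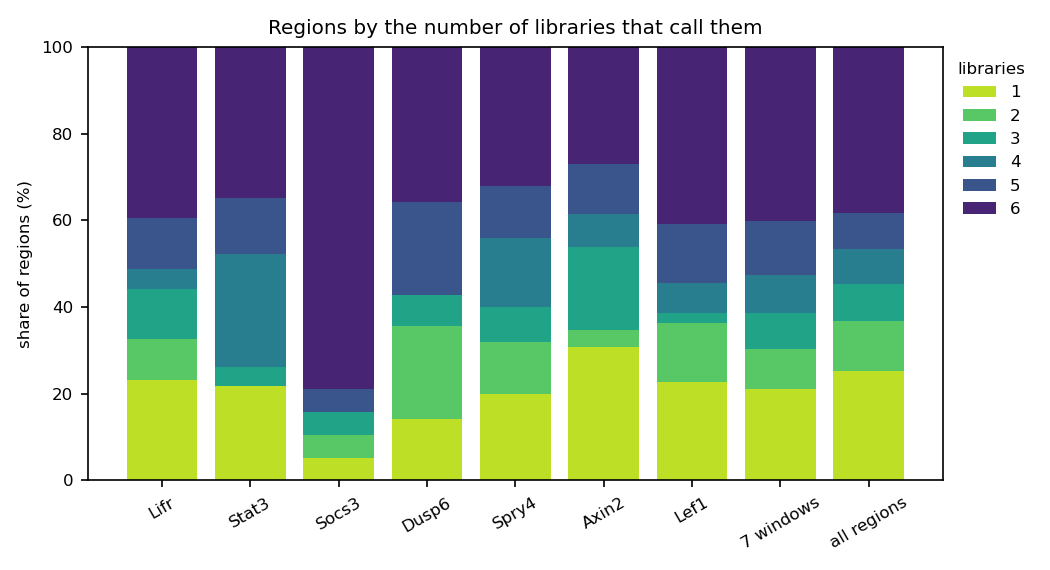
Share of regions (%) by the number of libraries that call them, for each window, for the 7 windows together and for all merged mouse regions. The Socs3 bar has the largest share called in all 6 libraries (78.9%) and the Axin2 bar the smallest (26.9%).

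Few regions of the windows were called in both libraries of a genotype and in neither of another. Of 187 member regions called in KO or WT, 4 were called in both KO libraries and in no WT library, which is 2.14%, against a background of 2.00% of all regions, and 9 (4.81%) were called in both WT libraries and in no KO library, against 7.63%. Of 180 regions called in del-cIDR or WT, 2 (1.11%) were listed by both libraries of del-cIDR and by neither of WT, against 1.02%, and 7 (3.89%) the other way, against 5.85%. Of 168 regions called in KO or del-cIDR, 3 (1.79%) were called in KO alone of the pair, against 4.12%, and 3 (1.79%) in del-cIDR alone, against 4.23%. The shares that favour KO or del-cIDR over WT were near the background. The WT lists are the longest, and with every list cut to 150680 peaks the counts against WT turned round: 9 of 163 regions (5.52%, background 4.37%) were then called in KO and not in WT, 4 (2.45%, background 5.13%) in WT and not in KO, 9 of 150 (6%, background 2.86%) in del-cIDR and not in WT, and 2 (1.33%, background 3.16%) in WT and not in del-cIDR.

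The regions behind these counts were low to middling in fold. They were 20 distinct regions with a highest own-list percentile of 51.7. Their summits held at most 35 tags in any library, where the median over a whole list was 17 to 21 tags. Of the 194 member regions, 1 was called in both libraries of both mutants and in no WT library, against 503 of all 259376 regions. In both WT libraries and in no other, 4 of the 194 were called, against 6870 of the 259376.

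In the 78 regions called in every library, the median percentile was 49.9 ± 0.128 in KO, 45.3 ± 0.483 in del-cIDR and 46.0 ± 3.86 in WT (SD, n = 2 libraries each). The median over regions of the KO minus WT difference was -0.39 points, of opposite sign to the difference of the medians, against 0.60 for all regions, and it turned to 0.53 without KO replicate 2 or without WT replicate 1. It was -1.86 points for del-cIDR minus WT, against 0.21, with -3.36 without WT replicate 2 and -0.56 without WT replicate 1. It was 1.84 points for KO minus del-cIDR, against 0.40, with 0.70 without KO replicate 1, 0.73 without KO replicate 2 and 1.09 without del-cIDR replicate 2. The median size of the difference between genotype means, whatever its sign, was 6.03 points between KO and WT, 6.11 between del-cIDR and WT, and 5.98 between KO and del-cIDR. Replicates are compared as single libraries: the median difference was 5.78 points within KO, 6.82 within del-cIDR and 6.17 within WT. Over the 4 pairings of single libraries from different genotypes, it ran from 5.33 to 8.75 points for KO against WT, from 6.10 to 9.06 for del-cIDR against WT, and from 7.57 to 10.0 for KO against del-cIDR. These pairings overlapped the replicate differences except between KO and del-cIDR, where all 4 were larger. Over all regions called in every library, the replicate differences were 6.62 points within KO, 6.54 within del-cIDR and 6.39 within WT. The pairings there ran from 8.40 to 9.17 points for KO against WT and from 7.16 to 7.26 for del-cIDR against WT. For KO against del-cIDR they ran from 8.32 to 8.99. Every pairing was thus larger than the replicate differences over all regions, so this was not particular to the windows. These comparisons share libraries and are not independent of each other.

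Both KO percentiles lay above both WT percentiles in 18 of the 78 regions (23.1%), against 27.2% of all regions, and below them in 15 (19.2%), against 23.2%. For del-cIDR, 14 regions (17.9%) lay above WT, against 21.1%, and 22 (28.2%) below, against 19.5%. Between the mutants, 22 regions (28.2%) were higher in KO, against 25.8%, and 11 (14.1%) were lower in KO, against 23.1%. Shifts of at least 20 points without overlap were fewer. There were 4 regions (5.13%) higher in KO than in WT, against 6.13%, and 7 (8.97%) lower, against 7.60%. There was 1 region (1.28%) higher in del-cIDR than in WT, against 2.82%, and 4 (5.13%) lower, against 3.57%. Between KO and del-cIDR, 8 regions (10.3%) were higher in KO, against 6.39%, and 2 (2.56%) lower, against 7.20%. Leaving out WT replicate 2 raised the number of shifts between KO and WT to 18, and leaving out del-cIDR replicate 2 or WT replicate 1 raised that between del-cIDR and WT to 10 or 8. The 26 shifts fell in 18 regions, and in all 26 the groups also did not overlap when regions were ranked by summit height in tags, 16 of them still by at least 20 points. The summit height enters the fold by which these regions were chosen, so the ranking by height is not separate evidence for the shifts.

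**Figure D2:**
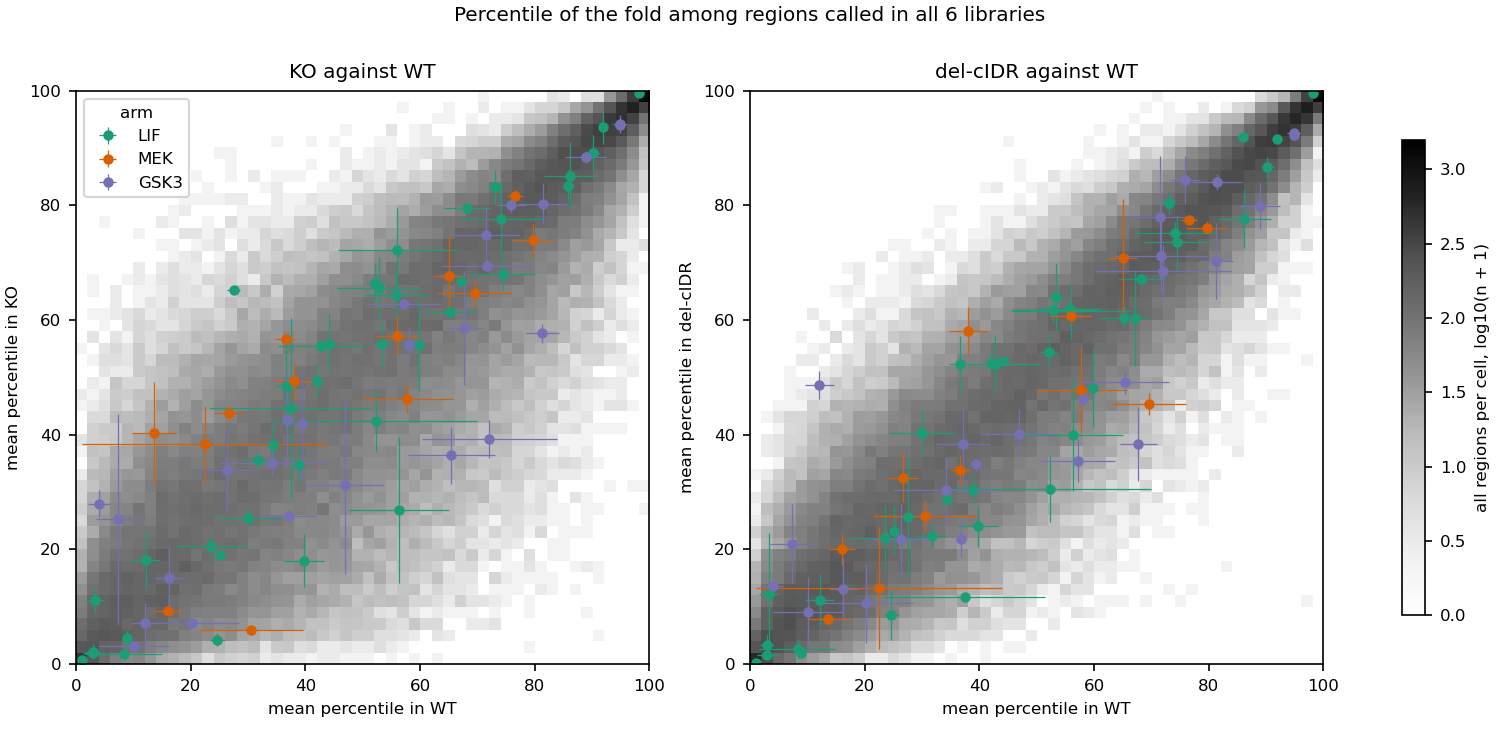
Mean percentile of the fold in KO (left) and in del-cIDR (right), each against the mean in WT, for the 78 member regions called in all 6 libraries (points, coloured by pathway arm; bars run between the 2 libraries of a genotype) over the number of all 99216 such regions per cell (grey, log10 scale). Most points lie along the diagonal, with the Stat3 region at 65.2 in KO and 27.5 in WT on the left and the Lef1 region at 48.7 in del-cIDR and 12.1 in WT on the right among the farthest from it.

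The Lifr window, around the gene of the LIF receptor subunit, spans 180 kb of chromosome 15 and held 43 regions, 17 of them called in every library. The median own-list percentile of its peaks, given for each window per library, was 51.3 and 32.7 in KO, 41.9 and 47.4 in del-cIDR, and 44.2 and 61.4 in WT, and the libraries of the genotypes overlapped. Among the 17 regions called in every library, the median percentile was 47.8 and 38.2 in KO, 30.2 and 36.4 in del-cIDR, and 39.7 and 50.3 in WT. By this measure both del-cIDR libraries lay below the others. The region with the highest fold of all windows lay here, at +85.8 kb (chr15:7255619-7256044). Its summit held 140 and 98 tags in the KO libraries, 109 and 111 in those of del-cIDR, and 84 and 100 in WT. Its percentile was 99.6 and 99.4 in KO, 99.7 and 99.7 in del-cIDR, and 97.4 and 99.1 in WT, near the top of every library. The tallest summit of the window, at -58.5 kb (chr15:7111140-7111912), reached 245 and 220 tags in the KO libraries, 207 and 197 in those of del-cIDR, and 158 and 198 in WT. Its percentile was 80.2 and 86.2 in KO, 82.4 and 78.5 in del-cIDR, and 71.9 and 74.3 in WT, so both mutants stood above WT there by fold. By height percentile, the difference from WT was only 1.17 points in KO and 1.02 points in del-cIDR.

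Weaker Lifr regions shifted further. The region at +19.7 kb (chr15:7189159-7190222) stood at percentile 22.7 and 13.4 in KO, 20.5 and 27.7 in del-cIDR, and 43.2 and 36.3 in WT, with 20 and 12, 18 and 21, and 28 and 30 tags in the same libraries. The KO minus WT difference was -21.7 points, and both mutants lay below WT without overlap. Its summits spread over 250 bp between libraries, against a median spread of 71 bp, so the libraries may not mark the same site. The region at -83.6 kb (chr15:7086271-7086588) stood at 14.2 and 39.6 in KO, 30.2 and 49.9 in del-cIDR, and 65.0 and 47.6 in WT, where del-cIDR overlapped WT and KO did not. Its summit held 12 and 15 tags in the KO libraries, 15 and 20 in those of del-cIDR, and 26 and 22 in WT. The region at -74.0 kb (chr15:7095761-7096155) stood at 60.4 and 28.9 in KO, 12.2 and 11.3 in del-cIDR, and 23.3 and 51.5 in WT. Its summit held 41 and 21 tags in the KO libraries, 15 and 14 in those of del-cIDR, and 21 and 32 in WT, with del-cIDR the lowest and KO spanning the widest range.

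The Lifr regions that were called by genotype were weak in tags or in fold. The region at +76.7 kb (chr15:7246473-7246906) was called in both KO libraries, with 9 and 8 tags, and in no other library. The region at +53.9 kb had 13 and 7 tags in KO, was called in no del-cIDR library and had 10 tags in a WT library. The region at +4.7 kb was called in KO replicate 1 with 11 tags and in WT with 13 and 9 tags, and in no del-cIDR library. The region at -56.7 kb (chr15:7113186-7113411) had 29 and 35 tags in del-cIDR and 28 and 33 in WT and was called in no KO library. It lies beside the tallest summit of the window and had an own-list percentile of at most 0.631, the lowest of the regions called by genotype.

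The Stat3 window, around the gene of the transcription factor that LIF activates, spans 120 kb of chromosome 11 and held 23 regions, 8 of them called in every library. Its median own-list percentile was 48.2 and 51.0 in KO, 25.5 and 40.0 in del-cIDR, and 54.8 and 53.4 in WT, so the del-cIDR libraries lay below the others. Among the regions called in every library, the median percentile was 66.0 ± 0.646 in KO, 54.3 ± 1.09 in del-cIDR and 63.5 ± 0.125 in WT (SD, n = 2). The strongest region, at +30.4 kb (chr11:100830007-100830877), had 227 and 206 tags in the KO libraries, 187 and 179 in those of del-cIDR, and 179 and 205 in WT. Its percentile lay between 90.7 and 96.7 in KO, from 91.2 to 92.1 in del-cIDR, and from 91.7 to 92.2 in WT, and the genotypes did not separate. The second, at -48.7 kb (chr11:100750961-100751610), stood at 89.2 ± 4.40 in KO, 86.7 ± 2.64 in del-cIDR and 90.2 ± 1.68 in WT, with 78 and 63 tags in the KO libraries, 56 and 63 in those of del-cIDR, and 67 and 69 in WT.

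By fold percentile among the regions called in every library, the largest shift against WT in any window was near the right end of the Stat3 window, at +46.2 kb (chr11:100846081-100846311). Its percentile was 64.9 and 65.5 in KO, 36.1 and 15.1 in del-cIDR, and 26.4 and 28.7 in WT. KO stood 37.7 points above WT and 39.6 points above del-cIDR, with the KO libraries nearly equal and no overlap. In tags, the summit reached 60 and 41 in KO, 34 and 27 in del-cIDR, and 32 and 35 in WT. Ranked by height, the KO minus WT difference was smaller, at 22.0 points, and the Lef1 region at -26.9 kb was farther from WT, at -40.8 points. That Lef1 region was also the farther by −log10 q, and the Socs3 region at -24.3 kb by own-list percentile. Under the 6 other rankings and merging rules tried for it, the difference lay between 21.2 and 37.7 points. Regions on both sides of it were called by genotype. The region at +50.1 kb (chr11:100849696-100850590) was the only member called in both libraries of both mutants and in no WT library, with 33 and 17 tags in the KO libraries and with 26 and 22 tags in those of del-cIDR. The region at +45.2 kb (chr11:100845135-100845301) had 16 and 23 tags in del-cIDR, was called in no KO library and had 20 tags in WT replicate 2.

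The Socs3 window, around the gene of the inhibitor that STAT3 induces, spans 70 kb of chromosome 11 and held 19 regions, 15 of them called in every library. Its median own-list percentile was 60.5 and 59.8 in KO, 68.0 and 68.6 in del-cIDR, and 63.5 and 64.4 in WT, with no overlap between genotypes and KO the lowest. Among the regions called in every library, the order differed: the median percentile was 52.2 and 46.4 in KO, 53.4 and 52.4 in del-cIDR, and 41.5 and 42.5 in WT, with both mutants above WT. The order of KO and WT here thus depends on the measure. These medians differ both in the list ranked against and in the regions that enter them, and which of these changed the order was not tested. The strongest region by fold, at -22.3 kb (chr11:117832420-117833020), had 64 and 44 tags in the KO libraries, 65 and 72 in those of del-cIDR, and 59 and 76 in WT. Its percentile was 83.4 ± 3.97 in KO, 92.0 ± 0.382 in del-cIDR and 85.9 ± 1.36 in WT (SD, n = 2), with del-cIDR the highest by fold.

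The region at -0.6 kb (chr11:117854030-117854748) stood at 70.6 and 84.5 in KO, 77.1 and 73.3 in del-cIDR, and 66.9 and 81.4 in WT. It had 155 and 141 tags in the KO libraries, 164 and 149 in those of del-cIDR, and 129 and 180 in WT, and the genotypes overlapped. The only Socs3 region that shifted by at least 20 points was a weak one at -24.3 kb (chr11:117830614-117830851). Its percentile was 3.10 and 5.37 in KO, 4.19 and 13.0 in del-cIDR, and 25.9 and 23.3 in WT. Its summit held 17 and 15 tags in the KO libraries, 16 and 22 in those of del-cIDR, and 27 and 33 in WT, so both mutants were below WT by both measures. At -27.8 kb (chr11:117827052-117827384) a region was called with 31 and 19 tags in KO and with 18 in replicate 1 of del-cIDR, and in no WT library.

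The Dusp6 window, around the gene of the ERK phosphatase, spans 80 kb of chromosome 10 and held 14 regions, 5 of them called in every library. Its median own-list percentile was 44.6 and 26.6 in KO, 48.7 and 51.2 in del-cIDR, and 57.6 and 20.1 in WT, a wide spread on 8 to 13 peaks per list. The tallest region, at -0.8 kb (chr10:99098830-99099558), had 180 and 145 tags in the KO libraries, 164 and 176 in those of del-cIDR, and 177 and 181 in WT. Its percentile was 71.1 and 76.8 in KO, 75.0 and 77.3 in del-cIDR, and 83.1 and 76.1 in WT, so the order of the genotypes was not clear of the spread. The region with the highest mean percentile, at +29.2 kb (chr10:99128926-99129455), stood at 82.7 and 80.6 in KO, 77.8 and 77.1 in del-cIDR, and 75.1 and 77.9 in WT, with KO the highest by fold. Its summit held 53 and 39 tags in the KO libraries, 50 and 46 in those of del-cIDR, and 54 and 66 in WT, and by height percentile KO was instead below WT, with a KO minus WT difference of -7.30 points.

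Beside the tallest Dusp6 region, at +1.4 kb (chr10:99101231-99101607), the percentile was 56.1 and 57.4 in KO, 31.3 and 36.3 in del-cIDR, and 38.4 and 34.8 in WT. KO stood 20.2 points above WT and 23.0 above del-cIDR. Its summit had 147 and 109 tags in the KO libraries, 88 and 99 in those of del-cIDR, and 95 and 105 in WT, and by height the KO minus WT difference was only 3.85 points. Both WT libraries and no mutant library called the regions at +7.0 kb (chr10:99106782-99107272), with 8 and 11 tags, and at +23.8 kb (chr10:99123714-99123845), with 11 and 12 tags. The region at -35.5 kb was called in KO with 13 and 8 tags, in WT replicate 2 with 7 tags and in no del-cIDR library.

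The Spry4 window, around the gene of a Sprouty inhibitor of receptor signalling, spans 90 kb of chromosome 18 and held 25 regions, 8 of them called in every library. Its median own-list percentile was 48.0 and 60.8 in KO, 33.7 and 46.4 in del-cIDR, and 33.2 and 36.5 in WT, so both KO libraries were above the rest. The number of peaks was 14.0 ± 1.41 in KO, 14.5 ± 2.12 in del-cIDR and 19.5 ± 2.12 in WT (SD, n = 2). The strongest region, at +9.5 kb (chr18:38733891-38735128), had 104 and 64 tags in the KO libraries, 65 and 91 in those of del-cIDR, and 77 and 89 in WT, with no separation of the genotypes. It reached a percentile of only 67.7 ± 9.99 in KO, 70.8 ± 14.5 in del-cIDR and 65.0 ± 3.59 in WT, the lowest top region of the 7 windows.

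The other Spry4 regions moved in both directions. At +0.9 kb (chr18:38725379-38726329) the summit had 53 and 43 tags in the KO libraries, 35 and 32 in those of del-cIDR, and 51 and 52 in WT. The percentile was 64.7 ± 3.06 in KO, 45.3 ± 2.76 in del-cIDR and 69.5 ± 9.28 in WT, so del-cIDR alone was low, with a del-cIDR minus WT difference of -24.2 points. At +39.9 kb (chr18:38764530-38765193) the percentile was 6.54 and 5.31 in KO, 23.0 and 28.6 in del-cIDR, and 39.6 and 21.5 in WT, and KO alone was low by this measure. Its summit held 27 and 21 tags in the KO libraries, 27 and 31 in those of del-cIDR, and 49 and 39 in WT, and by height percentile both KO and del-cIDR lay below WT, by differences of -22.7 and -15.1 points. At +44.1 kb (chr18:38768813-38769379) KO was instead the highest, with percentiles of 31.5 and 49.3 in KO, 6.77 and 8.81 in del-cIDR, and 9.85 and 17.4 in WT. Its summit held 34 and 38 tags in the KO libraries, 16 and 18 in those of del-cIDR, and 25 and 31 in WT. Neighbouring regions of the window thus moved in opposite directions in KO. At +34.2 kb (chr18:38758975-38759499) the percentile was 31.7 and 45.1 in KO, 2.65 and 23.9 in del-cIDR, and 1.04 and 43.9 in WT. KO had 29 and 29 tags, del-cIDR 8 and 16, and WT 9 and 31, and the WT libraries lay near both ends of the range.

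Of the Spry4 regions called by genotype, 3 were called in both WT libraries and in no KO library, each with at most 26 tags. The region at -19.1 kb (chr18:38705793-38705941) had 16 and 22 tags in WT and was called in no mutant library. The regions at -40.4 kb and +13.1 kb had 12 and 14 tags and 22 and 24 tags in WT, and were also called in del-cIDR replicate 1. The region at -33.9 kb (chr18:38691027-38691260) was listed only by del-cIDR, with 15 and 10 tags in its libraries.

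The Axin2 window, around the gene of the β-catenin destruction complex scaffold, spans 110 kb of chromosome 11 and held 26 regions, 7 of them called in every library. Its median own-list percentile was 29.6 and 25.5 in KO, 34.8 and 33.2 in del-cIDR, and 29.3 and 31.0 in WT, with del-cIDR above the others by a few points. This order was not kept among the regions called in every library. Their median percentile was 37.5 and 50.8 in KO, 36.0 and 31.8 in del-cIDR, and 43.4 and 35.9 in WT. The strongest region, at -13.7 kb (chr11:108810935-108811740), had 109 and 84 tags in the KO libraries, 88 and 94 in those of del-cIDR, and 77 and 117 in WT. Its percentile was 69.5 ± 1.40 in KO, 71.3 ± 8.76 in del-cIDR and 71.6 ± 11.3 in WT, and the genotypes could not be told apart.

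Of the 7 Axin2 regions called in every library, none was higher in either mutant than in WT without overlap, and 3 were lower in KO and 3 in del-cIDR. Over all such regions, 27.2% were higher and 23.2% lower in KO, and 21.1% were higher and 19.5% lower in del-cIDR. With only 7 regions, these counts do not set the window apart. At +9.7 kb (chr11:108834505-108834984) the percentile was 59.4 and 56.0 in KO, 63.7 and 77.0 in del-cIDR, and 84.3 and 78.4 in WT, and the KO minus WT difference was -23.7 points. Its summit held 49 and 34 tags in the KO libraries, 46 and 55 in those of del-cIDR, and 59 and 60 in WT. At -44.9 kb (chr11:108779813-108780413) it was 48.6 and 68.6 in KO, 31.9 and 44.9 in del-cIDR, and 64.5 and 70.9 in WT, where KO overlapped WT and del-cIDR was lower. Its summit held 27 and 35 tags in the KO libraries, 19 and 24 in those of del-cIDR, and 35 and 44 in WT. At -23.3 kb (chr11:108801287-108802077) KO had 29 and 28 tags, del-cIDR 17 and 19, and WT 27 and 30, with del-cIDR the lowest. Its percentile was 34.3 and 50.8 in KO, 18.7 and 25.1 in del-cIDR, and 37.9 and 35.9 in WT. Its close neighbour at -22.3 kb (chr11:108802531-108802783) was called with 14 and 10 tags in KO and with 9 in replicate 1 of del-cIDR, and in no WT library. The regions at -36.3 kb and +29.1 kb were called in KO replicate 2 and in both WT libraries, with at most 9 tags, and in no del-cIDR library. The region at +49.6 kb had 9 tags in del-cIDR replicate 1, 11 and 8 tags in WT and no call in KO.

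The Lef1 window, around the gene of the β-catenin partner, spans 210 kb of chromosome 3 and held 44 regions, 18 of them called in every library. Among these 18, the median percentile was 49.1 and 41.1 in KO, 46.7 and 48.0 in del-cIDR, and 55.7 and 59.2 in WT, so both mutants were below WT. The order was not kept in the own-list median, which was 53.3 and 37.5 in KO, 57.3 and 53.2 in del-cIDR, and 44.1 and 46.3 in WT. The strongest regions were high in all libraries. At -69.0 kb (chr3:130895738-130896330) the summit had 129 and 87 tags in the KO libraries, 134 and 143 in those of del-cIDR, and 126 and 139 in WT, at a percentile of 94.2 ± 2.24 in KO, 92.6 ± 0.742 in del-cIDR and 94.9 ± 1.67 in WT. At +66.6 kb (chr3:131031357-131031899) the percentile was 94.1 ± 1.45 in KO, 92.3 ± 0.617 in del-cIDR and 95.0 ± 1.04 in WT, with 64 and 48 tags in the KO libraries, 57 and 60 in those of del-cIDR, and 69 and 65 in WT.

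By fold percentile, the largest shift between the mutants in any window was in a Lef1 region. It was also the only region at least 20 points higher in del-cIDR than in WT without overlap. At +89.4 kb (chr3:131054159-131054668) the summit had 11 and 7 tags in the KO libraries, 25 and 25 in those of del-cIDR, and 15 and 16 in WT. Its percentile was 10.6 and 3.58 in KO, 46.3 and 51.1 in del-cIDR, and 14.6 and 9.52 in WT. The del-cIDR libraries stood 36.6 points above WT, while the KO minus del-cIDR difference was -41.6 points and KO overlapped WT by fold. By height percentile, the KO minus del-cIDR difference was -36.5 points. The Lef1 region at -26.9 kb and the Spry4 regions at +34.2 kb and +44.1 kb were then farther apart, at -38.8, 38.7 and 37.2 points. At -26.9 kb (chr3:130937884-130938218) KO was the low genotype, with 22 and 15 tags in the KO libraries, 47 and 39 in those of del-cIDR, and 56 and 43 in WT. The percentile there was 42.5 and 36.0 in KO, 73.1 and 63.9 in del-cIDR, and 83.9 and 60.3 in WT, and the KO minus WT difference was -32.8 points.

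At -86.3 kb (chr3:130878379-130879121) the percentile ran in the order of KO, with 31.4 and 41.3, then del-cIDR, with 47.1 and 51.1, then WT, with 57.9 and 73.1. Its summit held 30 and 24 tags in the KO libraries, 46 and 51 in those of del-cIDR, and 52 and 72 in WT. At -9.2 kb (chr3:130955440-130956220) the order was the opposite, with 25.6 and 30.4 in KO, 13.4 and 13.9 in del-cIDR, and 5.90 and 2.02 in WT, on summits of 8 to 15 tags. The summits of the libraries spread over 590 bp of this 781 bp region, against a median spread of 71 bp. The order there may therefore compare different sites joined by merging. At +41.1 kb (chr3:131005786-131006316) the percentile was 62.4 and 63.3 in KO, 39.2 and 31.8 in del-cIDR, and 50.8 and 63.6 in WT, with del-cIDR the lowest. Its summit held 34 and 31 tags in the KO libraries, 26 and 21 in those of del-cIDR, and 30 and 38 in WT. The Lef1 shifts therefore ran in both directions and in both mutants. Among weak regions, the one at -31.1 kb (chr3:130933666-130934056) had 14 and 14 tags in WT and was called in no mutant library, and that at -76.1 kb had 11 tags in del-cIDR replicate 1, 9 and 12 tags in WT and no call in KO.

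**Figure D3:**
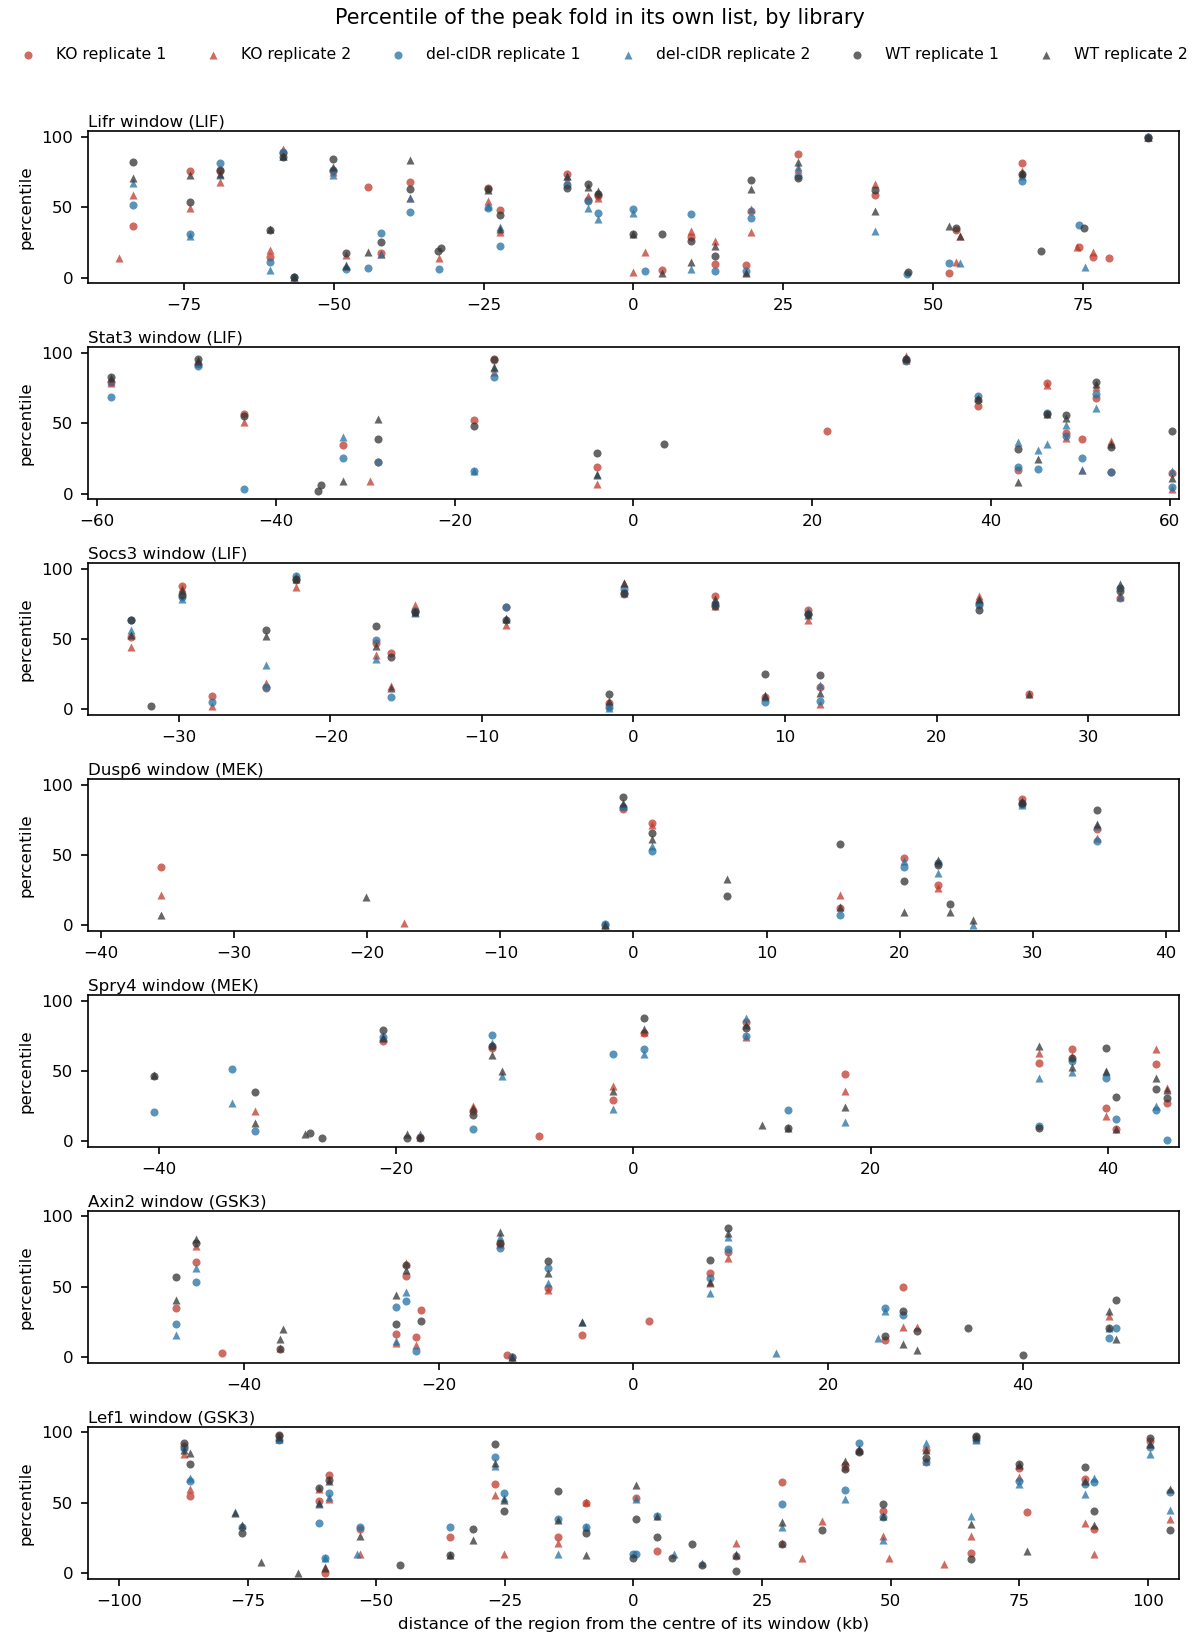
Own-list percentile of the fold of each peak (vertical axis) against its distance from the centre of its window in kb (horizontal axis), one panel per window, with colours for the genotypes and circles and triangles for replicates 1 and 2. The Lifr region at +85.8 kb is near 100 in all 6 libraries, and no peak of the Dusp6, Spry4 and Axin2 panels is above 91.9.

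**Figure D4:**
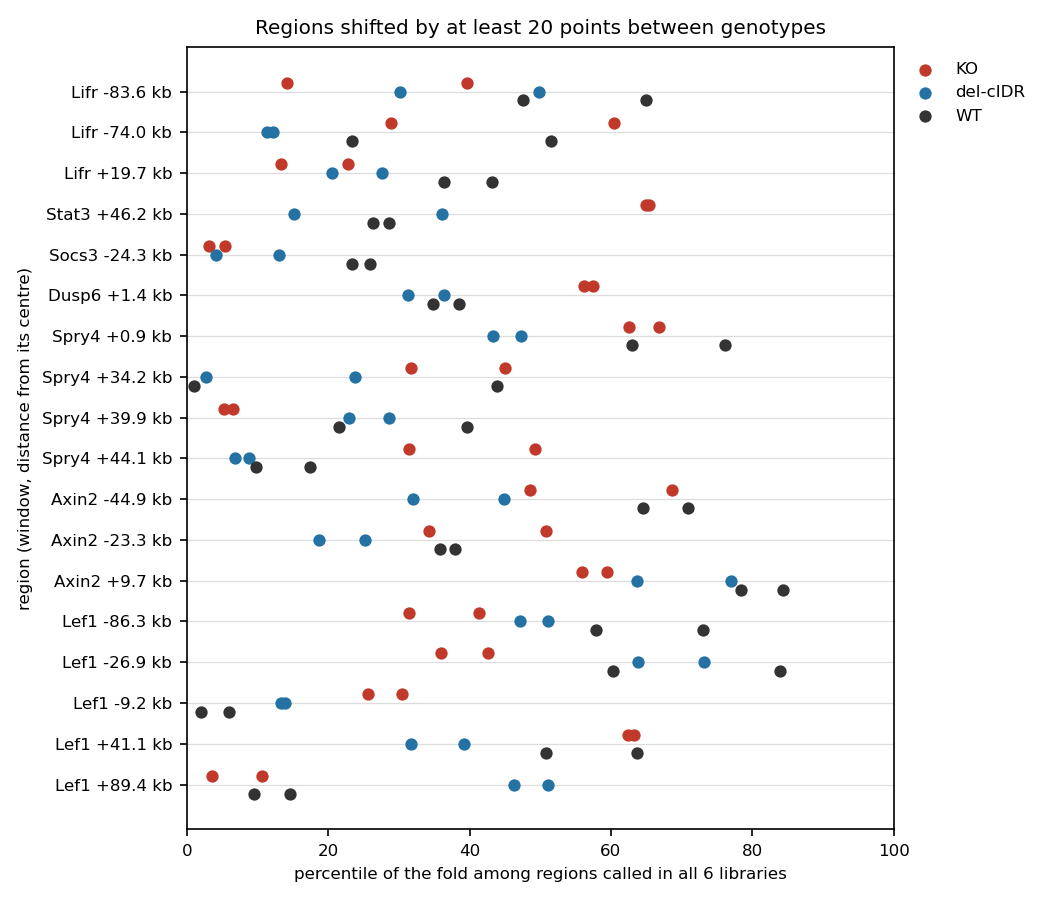
Percentile of the fold in each library for the 18 regions that differed by at least 20 points between genotypes without overlap, KO above del-cIDR above WT in each row. Stat3 +46.2 kb has both KO libraries at about 65 and WT under 30, and Lef1 +89.4 kb has both del-cIDR libraries near 50 and the others under 15.

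Rank by fold and rank by height gave different pictures of some regions. The median summit height of the 78 regions was 42.1 tags, against 32 tags for all regions, while their median local background was 2.89 tags, against 2.10. Their median percentile by height was 62.5, against 48.9 for all regions, and by fold 48.2, against 48.7. The ranks differed by at least 30 points in 15 of the 78 regions (19.2%), against 9.25% of all regions. Of these, 6 lay in the Socs3 window and 6 in the Lifr window. The Socs3 region at +8.7 kb (chr11:117863497-117863850) had 82 and 71 tags in the KO libraries, 78 and 81 in those of del-cIDR, and 100 and 86 in WT, at a mean percentile of 85.4 by height and 2.15 by fold, over a local background of 20.7 tags. The Lifr region at -60.6 kb (chr15:7109195-7109537) stood at 73.6 by height and 5.11 by fold, with 59 and 56 tags in the KO libraries, 50 and 45 in those of del-cIDR, and 56 and 69 in WT, beside the tallest summit of its window. A low fold percentile in these windows can thus go with a tall summit. The height in tags is therefore given beside the fold percentile of the regions described here that were called in every library. The exception is the Lifr region among the results flagged for a closer look.

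**Figure D5:**
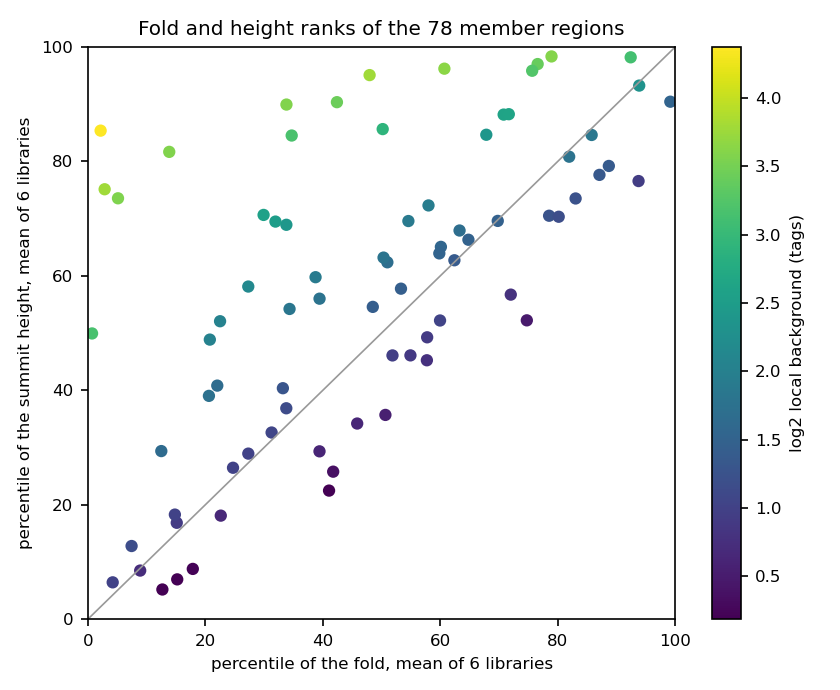
Percentile of the summit height against percentile of the fold, each the mean of 6 libraries, for the 78 member regions called in every library, coloured by the log2 of the local background in tags. Regions with a high background lie above the diagonal, as does the Socs3 region with 85.4 by height and 2.15 by fold.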

How the data were processed

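The 6 peak lists were deposited by the authors, one per library, on GRCm39. The submitters' processing notes name MACS2, BWA, fastp, featureCounts, Picard and SAMtools, with no version, role or setting. By the column layout of the deposited lists, each peak carries the authors' integer score, its fold as a ratio of summit pileup to local background, and its p-value and q-value as −log10. The largest deposited q is 0.05. Peaks of spike-in chromosomes were left out.

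Peaks of different libraries were merged into a region from an overlap of 1 bp upwards, and a region took the value of its highest peak. Summit heights were solved from fold and p-value, with the fold taken as the ratio after 1 was added to both pileup and background. In this form, 100% of 1016776 peaks gave a whole tag number within 0.1. Folds were ranked in percentiles. A difference was counted where both libraries of a genotype lay on one side of both of the other. The region at each gene's start, the other pathway genes, stem cell markers and motifs at summits could not be placed, because the annotation used was GRCm38.p6, so promoters of that build were searched instead. Named regions were the top 2 by mean percentile in each window, every region called by genotype, and, chosen after their values were seen, the shifted regions, a pair with high summits and low folds, and a Lifr region that stood on opposite sides of WT in the mutants. The members and lists were chosen with earlier results of these data known. Scripts were tested on simulated data and ran in Python 3.11.15 with NumPy 2.4.6, pandas 2.3.3, SciPy 1.17.1 and Matplotlib 3.10.9.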

Additional observations from a re-analysis of the deposited data

Results flagged for a closer look

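In 2 of the 78 regions called in every library (2.56%, against 5.39% of all regions), both KO libraries lay on one side of both WT libraries and both del-cIDR libraries on the other. The difference between these differences was not tested. The Spry4 region at +44.1 kb (chr18:38768813-38769379) differed from WT by 26.8 percentile points in KO and by -5.82 points in del-cIDR. The Lifr region at -5.9 kb (chr15:7163828-7164438) differed from WT by 3.79 points in KO and by -9.36 points in del-cIDR. The differences of -5.82 and 3.79 points, each between means of 2 libraries, were smaller in size than the median difference between the single WT libraries, 6.17 points. By height percentile, the Spry4 region differed from WT by 18.5 points in KO and by -18.7 points in del-cIDR, also without overlap.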

How the results depend on the processing

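When every list was cut to the length of the shortest, there were 9 regions for KO and not WT, 4 for WT and not KO, 9 for del-cIDR and not WT, 2 for WT and not del-cIDR, and 6 for KO and not del-cIDR. With a deposited −log10 q of at least 5 they were 5 for WT and not KO, 7 for del-cIDR and not WT, and 7 for del-cIDR and not KO. Ranking by −log10 q gave a median KO minus del-cIDR difference of 0.41 points, and ranking by summit height, chosen after seeing the data, gave 0.36. Ranking in the own list, where WT lists are longer, gave medians of -3.20 for KO minus WT and -6.87 for del-cIDR minus WT. The number of regions shifted between del-cIDR and WT was 9 in the own list and 3 by height. At a limit of 10 points the shifted regions numbered 22 between KO and WT, 18 between del-cIDR and WT, and 23 between KO and del-cIDR.

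Leaving out a library at a time gave 4 to 13 regions for KO and not WT, 9 to 27 for WT and not KO, 2 to 8 for del-cIDR and not WT, 7 to 26 for WT and not del-cIDR, 3 to 16 for KO and not del-cIDR, and 3 to 12 for del-cIDR and not KO, where the library left in its genotype alone decided, so each count rose whenever a library of either genotype compared was left out. The regions called in every library then numbered 79 to 85. The median KO minus WT difference, near 0, ran from -1.31 without KO replicate 1 to 0.53 without KO replicate 2 or WT replicate 1, so its sign was not stable. The median del-cIDR minus WT difference ran from -3.36 without WT replicate 2 to -0.56 without WT replicate 1, and that of KO minus del-cIDR from 0.70 without KO replicate 1 to 1.84. Shifted regions ran from 9 to 18 between KO and WT, with 18 without WT replicate 2, from 4 to 10 between del-cIDR and WT, with 10 without del-cIDR replicate 2 and 8 without WT replicate 1, and from 9 to 12 between KO and del-cIDR. The cause of these moves was not tested. No paired analysis was possible because no result comes from a fitted test across libraries and no label ties the replicate numbers to a shared batch. The windows drawn 10 kb around each gene were not run, since no annotation of the files' build was used. Read depth was not given, so what depth limits was not assessed.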
